A study of Mus musculus with 288 samples.

Results

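Wells of this sort that were chosen as alveolar by their Sftpc were split by how much Scgb1a1 they held and compared across all other genes. Sftpc encodes surfactant protein C, which in the lung marks alveolar type 2 (AT2) cells, and Scgb1a1 encodes the main secretoglobin of airway club cells. A well was taken when its total exceeded 2340 counts (10 times the higher of the 2 control wells), Sftpc gave at least 1% of that total and Scgb3a1, a secretoglobin of other airway secretory cells, gave under 1%. Of 286 sorted wells 227 passed the limit on totals, and 63 of these met both gene limits. Wells with more than 40 Scgb1a1 counts are called Scgb1a1-retaining (30 wells) and those with 40 or fewer Scgb1a1-poor (33 wells). The names state only which wells were chosen by this count. Whether the Scgb1a1 of a well was made in its cell was not tested.

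Both sides came from the same sort of C57BL/6 mice aged 4 months with the genotype Scgb1a1-CreER;Rosa26-mTmG. Every well therefore shares the recombinase allele, driven by the Scgb1a1 promoter, and the reporter allele, whose fluorescent protein changes for good in a cell that has recombined and in its descendants. The gate took lineage-positive epithelial cells (Epcam+, CD45-, CD31-) with low CD24. Labels give no time or dose of induction, and none of them names the animal of a cell. All wells were hence treated as 1 sample, each side is 1 pool, and there is no replicate check, p-value or standard error for any difference given here.

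Club cells line the bronchioles, secrete Scgb1a1 and Scgb3a2 and carry detoxifying enzymes such as the cytochrome P450 Cyp2f2. AT2 cells make surfactant lipids and proteins, store them in lamellar bodies, and unlike most epithelia express major histocompatibility complex (MHC) class II molecules, which present peptides to helper T cells. A lineage label under the Scgb1a1 promoter marks AT2 cells too where they express or once expressed that gene, so such a sort can hold alveolar cells with much or little Scgb1a1.

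The Scgb1a1 counts that defined the sides ranged over a wide span in retaining wells. They were 44 to 1803 with a median of 70.5 in retaining wells, or 1.15 to 24.3% of all counts of a well, against 1 to 40 with a median of 14 in poor wells, or 0.0278 to 1.20%. The retaining wells nearest the limit held 44, 46 and 47 counts and the nearest poor wells 40, 34 and 28. Many wells lay near the limit, with 9 of more than 20 to 40 counts and 19 of more than 40 to 100. Most of the span belonged to 6 retaining wells with 426, 1050, 1456, 1580, 1681 and 1803 counts. The other 24 had at most 337 and a median of 66.5.

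Sftpc, the gene that admitted a well, lay far above its limit on both sides. Its share was 2.07 to 21.2% (median 16.0%) in retaining wells and 8.08 to 24.7% (median 17.0%) in poor wells. The members just inside the limit had 2.07, 5.36 and 6.70%, all retaining wells of over 1000 Scgb1a1 counts, and the nearest wells outside it had 0.734, 0.442 and 0.233%. No kept well combined at least 1% of Sftpc with at least 1% of Scgb3a1, and the highest Scgb3a1 share of a member was 0.0779%. Chromosomal positions on mm10 are 19:9083636-9087958 (minus strand) for Scgb1a1 and 14:70520949-70524081 (minus strand) for Sftpc.

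**Figure D1:**
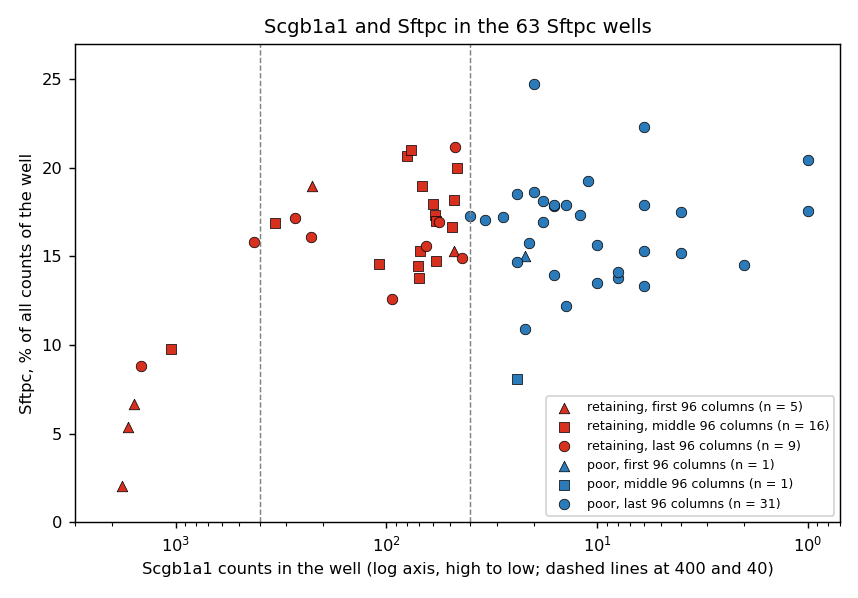
Scgb1a1 counts (horizontal, log axis running high to low) and Sftpc as a percent of all counts (vertical) in each of the 63 wells, with red for retaining and blue for poor wells and a symbol for each successive set of 96 table columns. The wells at 8.83 to 9.80% of Sftpc and below on the retaining side are those with over 1000 Scgb1a1 counts, and 31 of the 33 poor wells are circles, from the last 96 columns.

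Depth and the place in the table differed between the sides. Totals were 2734 to 8806 (median 3907) in retaining wells and 2384 to 5093 (median 3182) in poor wells, and the sums were 130689 and 109988 counts. Retaining wells detected a median of 1381 genes and poor wells 1226, and after each well was thinned at random to 2384 counts, the smallest member total, the medians were 940.5 and 984. Scgb1a1 was part of the thinned total, so the counts left for other genes averaged 2241 in retaining wells and 2373 in poor wells. Thinning left 20 of the 30 retaining wells and 0 of the 33 poor wells above 40 Scgb1a1 counts. In the first, middle and last 96 columns of the table there were 5, 16 and 9 retaining wells against 1, 1 and 31 poor wells. Sorted wells with almost no RNA (at most as many counts as the fuller control) held 18 Scgb1a1 counts in the 1 such well of the first set, 21 to 36 in the 5 of the middle set and 3 to 16 in the 5 of the last set, and the 2 control wells held 20 and 18. Side and column set are thus nearly the same split over the whole table. The last 96 columns, with 9 retaining and 31 poor wells, are therefore also given alone for many list sums and genes. For a gene without such a value, side and set were not separated. How much of the Scgb1a1 of a well near the limit was carried over from other wells was not tested.

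Both sides expressed AT2 genes that the rule did not use. Transcripts of the surfactant proteins Sftpa1, Sftpb and Sftpd were present in 30 of 30 retaining wells and 33 of 33 poor wells, and those of Slc34a2, the phosphate carrier of AT2 cells, likewise. The lamellar body genes Lamp3 and Abca3 had counts in 30 and 28 retaining wells and in 32 and 29 poor wells. The 22 AT2 markers apart from Sftpc summed to 83036 CPM (counts scaled to a total of 1000000, here always the total without Scgb1a1) in retaining wells and 87451 CPM in poor wells, against 21619 CPM in the 90 kept wells low in both Sftpc and Scgb3a1, called club wells here. The retaining well of 1803 Scgb1a1 counts had 2.88% of AT2 markers, within the 0.031 to 4.45% of club wells, and 8.08% of club markers. It held 174 of the 346 Scgb3a2 counts and 107 of the 415 Cyp2f2 counts of its side.

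Counts per gene were summed over the wells of a side, and a gene was called higher or lower at a ratio of CPM of at least 2-fold whose exact 95% interval, which covers counting error only, excluded 1. Of 1388 genes with at least 20 counts over both sides, 41 (2.95%) were higher and 30 (2.16%) lower in retaining wells, and the median log2 ratio of all 1388 was 0.01. Within the last 96 columns 19 of 777 genes (2.45%) were higher and 37 (4.76%) lower. Of the 41 higher genes 8 were also higher there (19.5% of the 41 and 42.1% of the 19), and of the 30 lower genes 10 were also lower (33.3% and 27.0%). Of the 41 only 12, and of the 30 only 19, had the 20 counts to be measured in that set. Without the 6 wells of over 400 Scgb1a1 counts, a comparison chosen after the data were seen, 23 of 1158 genes (1.99%) were higher and 31 (2.68%) lower, with 11 and 19 shared with the full comparison. Of the 41 and the 30 genes, 26 and 27 were measured there.

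Club cell genes were higher in retaining wells, and most of their counts lay in those 6 wells. Of 13 measured club markers other than the genes that chose the wells, 6 were higher and 1 lower, beside 2.95% and 2.16% of all genes. Their median log2 ratio was 0.72 against 0.01 for all genes. The marker sum was 23978 CPM in retaining wells and 11890 CPM in poor wells, a log2 ratio of 1.01 (0.92 to 1.11), and 1.09 (0.97 to 1.22) within the last 96 columns. Split by Scgb1a1, the sum was 52644 CPM in the 6 wells over 400, 14050 CPM in the other 24 retaining wells and 11890 CPM in poor wells, beside 122860 CPM in club wells. Without the 6 wells 0 of 9 measured club markers were higher, beside 1.99% of all genes, and the log2 ratio of the sums was 0.24 (0.13 to 0.35).

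The secretoglobin Scgb3a2 was uneven among wells. Its CPM per well ran from 0 over a median of 248 to 24846 in retaining wells, and from 0 over a median of 0 to 7072 in poor wells. The 6 wells of over 400 Scgb1a1 counts held 313 of the 346 counts of the retaining side, with 2 to 174 in each, while 14 of the 30 retaining wells had none. Pooled, it had 2875 CPM in retaining wells and 356 CPM in poor wells (log2 ratio 3.01, 2.53 to 3.53). The log2 ratio was 2.23 (1.63 to 2.86) within the last 96 columns and 0.05 (-0.66 to 0.76) without the 6 wells.

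Cyp2f2, the club cell cytochrome P450 (7:27119909-27133660 on mm10, plus strand), had a count in 28 of 30 retaining and 28 of 33 poor wells. The medians were only 4 and 2 counts per well. Of the 11 sorted wells with almost no RNA, 7 also held Cyp2f2, with at most 2 counts each. How much of a low count was carried over from other wells was not tested. The CPM of Cyp2f2 per well ran from 0 over a median of 1031 to 15279 in retaining wells, and from 0 over a median of 717 to 2572 in poor wells. The 6 wells over 400 had 1965 to 15279 CPM, and 5 of them exceeded every poor well. Pooled, it had 3448 CPM in retaining wells and 785 CPM in poor wells (log2 ratio 2.13, 1.80 to 2.49). The ratio was 2.16 (1.75 to 2.58) within the last 96 columns and 0.75 (0.34 to 1.17), short of the 2-fold limit, without the 6 wells.

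Haptoglobin, Hp, a haemoglobin-binding protein made by club cells, followed the same order at smaller size. It had 2858 CPM in retaining wells and 1187 CPM in poor wells (log2 ratio 1.27, 0.97 to 1.57). The ratio was 1.47 (1.10 to 1.84) within the last 96 columns and 0.26 (-0.11 to 0.62) without the 6 wells. The retinal dehydrogenase Aldh1a1 had 38 counts in 8 retaining wells and 3 in 3 poor wells (log2 ratio 3.53, 1.87 to 5.87), and 34 of the 38 came from the 6 wells. Within the last 96 columns Aldh1a1 had 9 against 3 counts, too few to be measured. The glutathione transferase Gstm2 had 18 counts in 10 retaining wells against 2 in 2 poor wells (3.03, 0.97 to 6.19), and the cholecystokinin receptor Cckar had 22 counts in 13 retaining wells against 5 in 5 poor wells (2.00, 0.56 to 3.76). Cbr2, a carbonyl reductase abundant in club cells, had counts in every well of both sides, 11507 CPM in retaining wells and 6968 CPM in poor wells (0.72, 0.60 to 0.85), which is under the 2-fold limit. Within the last 96 columns Cbr2 was at 0.95 (0.78 to 1.12), also under that limit. The 1 lower marker was Retnla, a secreted resistin-like protein, with 24 counts in 3 retaining wells against 98 counts in a single poor well.

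**Figure D2:**
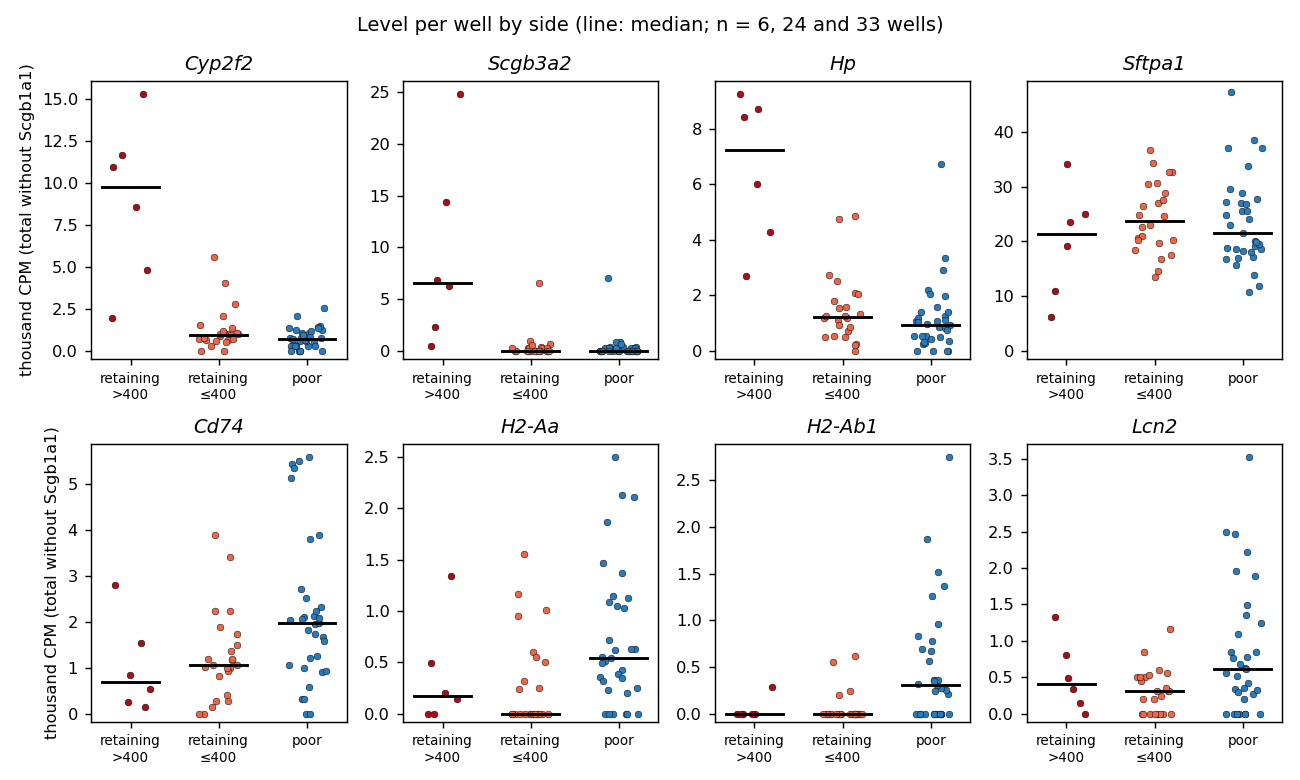
CPM of the total without Scgb1a1, divided by 1000, in each well for 8 genes, with 6 retaining wells over 400 Scgb1a1 counts, 24 other retaining wells and 33 poor wells from left to right and a line at each median. Cyp2f2, Scgb3a2 and Hp stand out in the first column of points, Sftpa1 overlaps throughout, and H2-Ab1 has counts in 1 and 4 wells of the first 2 columns of points against 21 of 33 poor wells.

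Within the last 96 columns the club marker sum was higher in retaining wells also without the wells over 400. That set held 2 of the 6, and without them 7 retaining wells remained beside 31 poor wells. Of 709 genes measured there 10 (1.41%) were higher and 21 (2.96%) lower. Of 9 measured club markers 3 were higher and 1 lower, and the marker sums differed by a log2 ratio of 0.74 (0.58 to 0.89). Of the 470 club marker counts in the 7 wells, 3 wells held 136, 89 and 76. Cyp2f2 had 2068 CPM in those retaining wells and 813 CPM in the poor wells of the set (1.35, 0.80 to 1.87), and 1 of the 7 wells held 20 of their 48 counts. Without that well the ratio was 0.81 (0.14 to 1.44), short of the 2-fold limit. Scgb3a2 had 861 CPM in the retaining wells and 378 CPM in the poor wells (1.19, 0.33 to 2.00). Scgb3a2 of the 7 wells was mostly 1 well with 19 of the 20 counts. The first 96 columns held 1183 club marker counts in 5 retaining wells and the middle set 843 in 16, each beside only 1 poor well.

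By Scgb1a1 count, the club marker sum was highest in the wells over 400. The club marker sum was 10785 CPM in the 24 wells of 0 to 20 Scgb1a1 counts, 14694 CPM in the 9 wells of more than 20 to 40, 11889 CPM in the 19 wells of more than 40 to 100, 21307 CPM in the 5 wells of more than 100 to 400 and 52644 CPM in the 6 wells over 400. The 9 wells just below the limit and the 19 just above it were close per well, with medians of 11010 CPM in the 19 and 10279 CPM in the 9. In the 9 a single well held 127 of the 455 counts, and in the 19 a single well held 136 of 819. The AT2 marker sum ran 89524, 82192, 93910, 76694 and 63043 CPM over the same bins and was lowest in the wells over 400, where Sftpc was also lowest at 91238 CPM, against 151563 to 179035 CPM in the other bins. As a description over wells that share a sort, the Spearman correlation of Scgb1a1 counts with the club marker share was 0.48 in all 63 wells, 0.63 in the 30 retaining wells, 0.22 in the 33 poor wells and 0.54 in the 40 wells of the last set. Scgb1a1 counts also ran with totals, at 0.54 in all 63 wells.

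**Figure D3:**
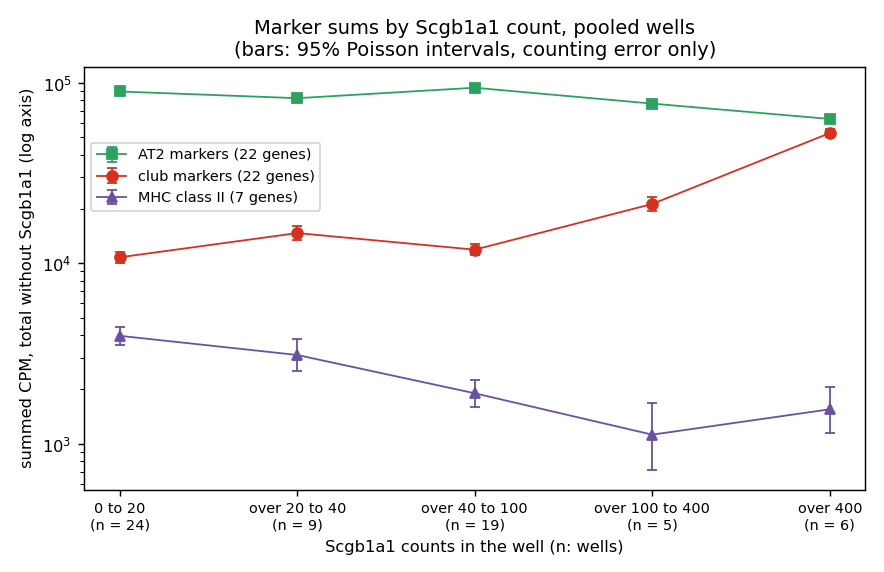
Summed CPM of 3 gene lists (log axis) in wells pooled by Scgb1a1 count from low to high, with 95% Poisson intervals for counting error only. The club sum is at 10785 CPM in the lowest bin and 52644 CPM in the highest, and the MHC class II sum is at 3960 CPM in the lowest and 1550 CPM in the highest.

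Club genes can also be set against Scgb1a1, but Scgb1a1 is the count by which the wells were chosen, so these proportions are lowered by the choice in the wells over 400 and are a description only. Per 1000 Scgb1a1 counts the 6 wells over 400 held 27.1 of Hp and 26.1 of Wfdc2, a secreted protease inhibitor, against 23.4 and 25.7 in club wells. Cbr2 stood at 73.2 in the 6 wells and 93.4 in club wells, Scgb3a2 at 39.1 and 60.1, Cyp2f2 at 37.1 and 65.8 and Aldh1a1 at 4.25 and 10.3.

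The 6 wells over 400 were also deeper at the median. Their totals were 4497 to 8806 counts (median 6731.5), or 3748 to 7003 (median 5101) without Scgb1a1, and their Sftpc shares 2.07 to 15.8%. The other 24 retaining wells had totals of 2734 to 6782 (median 3631.5), or 2686 to 6445 (median 3560.5) without Scgb1a1. The ranges of totals thus overlapped. The median Sftpc share of those 24 wells was 16.9%. Of the 6, 3 lay in the first, 1 in the middle and 2 in the last 96 columns. Whether a well held more than 1 cell was not tested, and 1 cell with both programmes and 2 cells in a well cannot be told apart from these counts.

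MHC class II genes were lower in retaining wells, with and without the 6 wells and in the last 96 columns. The class II molecule pairs an alpha and a beta chain (H2-Aa with H2-Ab1, and H2-Eb1 as the beta chain of the second isotype), and Cd74 is the invariant chain that escorts them. All 4 measured genes of the list had negative log2 ratios, and the median was -1.09 against 0.01 for all genes. Of the 4, 2 were called lower, beside 2.16% of all genes. The 7 genes summed to 202 counts (1678 CPM) in retaining wells and 407 counts (3717 CPM) in poor wells, a log2 ratio of -1.15 (-1.40 to -0.90). It was -1.44 (-1.92 to -0.99) within the last 96 columns, where 3 of 4 genes were lower, beside 4.76% of all genes. Without the wells over 400 it was -1.11, and -1.20 in the last 96 columns without them. After thinning it was -1.15 (-1.47 to -0.83).

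Class II promoters carry conserved boxes named X and Y, which bind the factors that recruit the class II transactivator. To show the 2 promoters of the list in which the Y box letters CTGATTGG were found, the 250 bases before the RefSeq start of each gene are printed 5′ to 3′ (GRCm38.p6, the assembly of mm10), with matches to CTGATTGG and to the X box in capitals. The X box was searched as the 11 letters shown in H2-Eb1, with any base allowed at letter 7. The first runs on the minus strand (chr17:34287824-34288073) and the second on the plus strand (chr17:34305617-34305866).
H2-Aa: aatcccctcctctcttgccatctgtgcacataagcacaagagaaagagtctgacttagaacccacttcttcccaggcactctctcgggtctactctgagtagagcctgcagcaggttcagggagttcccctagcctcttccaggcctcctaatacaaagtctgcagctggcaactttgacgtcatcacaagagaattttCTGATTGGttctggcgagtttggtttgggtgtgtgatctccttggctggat
H2-Eb1: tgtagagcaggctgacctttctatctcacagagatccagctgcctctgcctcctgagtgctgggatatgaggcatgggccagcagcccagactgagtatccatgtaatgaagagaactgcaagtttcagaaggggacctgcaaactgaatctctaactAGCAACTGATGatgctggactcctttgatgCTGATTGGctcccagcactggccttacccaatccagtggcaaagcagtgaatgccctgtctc
The Y box letters start at base 200 in H2-Aa and at base 189 in H2-Eb1, and the X box letters at base 159 in H2-Eb1. Both strands were searched in the 300 bases around each start, and the 2 motifs did not overlap. CTGATTGG was found in 1346 of 32851 such windows (4.10%) and the X box letters in 23 (0.0700%). A promoter of 4 of the 7 class II genes was in the table, 2 with the Y box letters and 1 with those of the X box. A match describes letters and no binding was measured.

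H2-Ab1, the beta chain of the first isotype (17:34257689-34269419 on mm10, plus strand), differed most. Counts per retaining well were 0 to 2, with 25 of 30 wells at 0, against 0 to 10 per poor well, with 21 of 33 wells above 0. In CPM, retaining wells ran from 0 over a median of 0 to 621 and poor wells from 0 over a median of 303 to 2756. The ranges overlapped from 0 to 621 CPM, and 10 of the 33 poor wells lay above every retaining well. Pooled, it had 8 counts (66.5 CPM) in retaining wells and 51 counts (466 CPM) in poor wells, a log2 ratio of -2.81 (-4.10 to -1.72). The ratio was -2.82 within the last 96 columns, from 2 against 44 counts (-5.91 to -0.88), and -2.79 without the wells over 400. With all totals, Scgb1a1 included, thinned to 2384 counts it was detected in 3 of 30 retaining wells and 19 of 33 poor wells.

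Its partner H2-Aa (17:34282744-34287823, minus strand) had 0 to 7 counts per retaining well, 14 of 30 with any, and 0 to 9 per poor well, 27 of 33 with any. Pooled, it had 307 CPM in retaining wells and 694 CPM in poor wells (log2 ratio -1.17, -1.78 to -0.59), and -1.71 within the last 96 columns. Cd74 was present in 28 of 30 retaining wells and 31 of 33 poor wells, at 1155 CPM and 2201 CPM (-0.93, -1.24 to -0.62), and passed the 2-fold limit in the last 96 columns, at -1.18, and, barely, with Scgb1a1 counted in the totals, at -1.04. H2-Eb1 had 11 counts in retaining wells and 20 in poor wells (91.4 and 183 CPM, with an interval of the log2 ratio from -2.21 to 0.13). The class II sum ran 3960, 3100, 1902, 1121 and 1550 CPM over the 5 bins of Scgb1a1 count, low to high, and each bin above the limit was below both bins under it. The bins also differed in column set, which was not separated from Scgb1a1 count in these sums. Poor wells within the last 96 columns were at 3670 CPM, and the single poor wells of the first and middle sets were at 6461 and 3054 CPM, from 17 and 11 counts. Retaining wells were at 1604, 1884 and 1354 CPM in the 3 sets.

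Club wells, for comparison, held 57.0 CPM of class II in all, with 0 H2-Ab1 counts in 90 wells, and the 11 nearly empty sorted wells had 0 counts of H2-Ab1, H2-Aa and Cd74. Club genes were not at 0 in those 11 wells, with 8 counts of Cyp2f2, 10 of Scgb3a2 and 9 of Cbr2. Leukocytes can express class II strongly, and their markers gave 1 count in retaining wells and 0 in poor wells over 11 genes, with Ptprc, the CD45 gene, at 0 on both sides. Of 4 measured class I genes 0 were called. Only 1 was above 0 on the log2 scale, H2-K1 at 0.20, with H2-D1 at -0.29 and a median of -0.40. The log2 ratio of the class I sums was -0.20 (-0.51 to 0.12). Within the last 96 columns it was -0.53 (-1.07 to -0.01), with 0 of 4 genes above 0 and 0 called.

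Lcn2, a siderophore-binding defence protein (2:32384633-32388252, minus strand), was also lower in retaining wells. It ran from 0 over a median of 313 to 1334 CPM in retaining wells and from 0 over a median of 606 to 3532 CPM in poor wells. The upper part of the poor wells exceeded every retaining well, and the lower parts overlapped. Pooled, it had 349 CPM in retaining wells and 886 CPM in poor wells (log2 ratio -1.34, -1.90 to -0.81), -1.44 in the last 96 columns and -1.50 without the wells over 400. Of the 9 measured genes of the secreted defence list, Hp was higher and Lcn2 lower, and the lysozymes Lyz1 and Lyz2 were at 0.27 and 0.31.

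Surfactant genes differed by less than 2-fold between the sides. Of 21 measured AT2 markers 0 were higher and 0 lower, beside 2.95% and 2.16% of all genes. Of the 21 only 3 were above 0, their median log2 ratio was -0.21 and that of their sums -0.07 (-0.12 to -0.03). Sftpa1, a collectin of surfactant, ran from 6283 over a median of 23261 to 36743 CPM in retaining wells and from 10825 over a median of 21538 to 47210 CPM in poor wells, and the pooled log2 ratio was -0.05 (-0.13 to 0.03). Sftpb, which spreads surfactant lipids, was at -0.03 (-0.13 to 0.06). Within the last 96 columns the sums were at 0.00, but 4 of the 21 were lower, beside 4.76% of all genes. They were the transcription factor Etv5 (-1.14), Egfl6 (-1.69), the calcium-binding S100g (-1.02) and the fatty acid carrier Fabp5 (-2.67). In all wells these 4 were at -0.55, -0.56, -0.73 and -0.77.

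**Figure D4:**
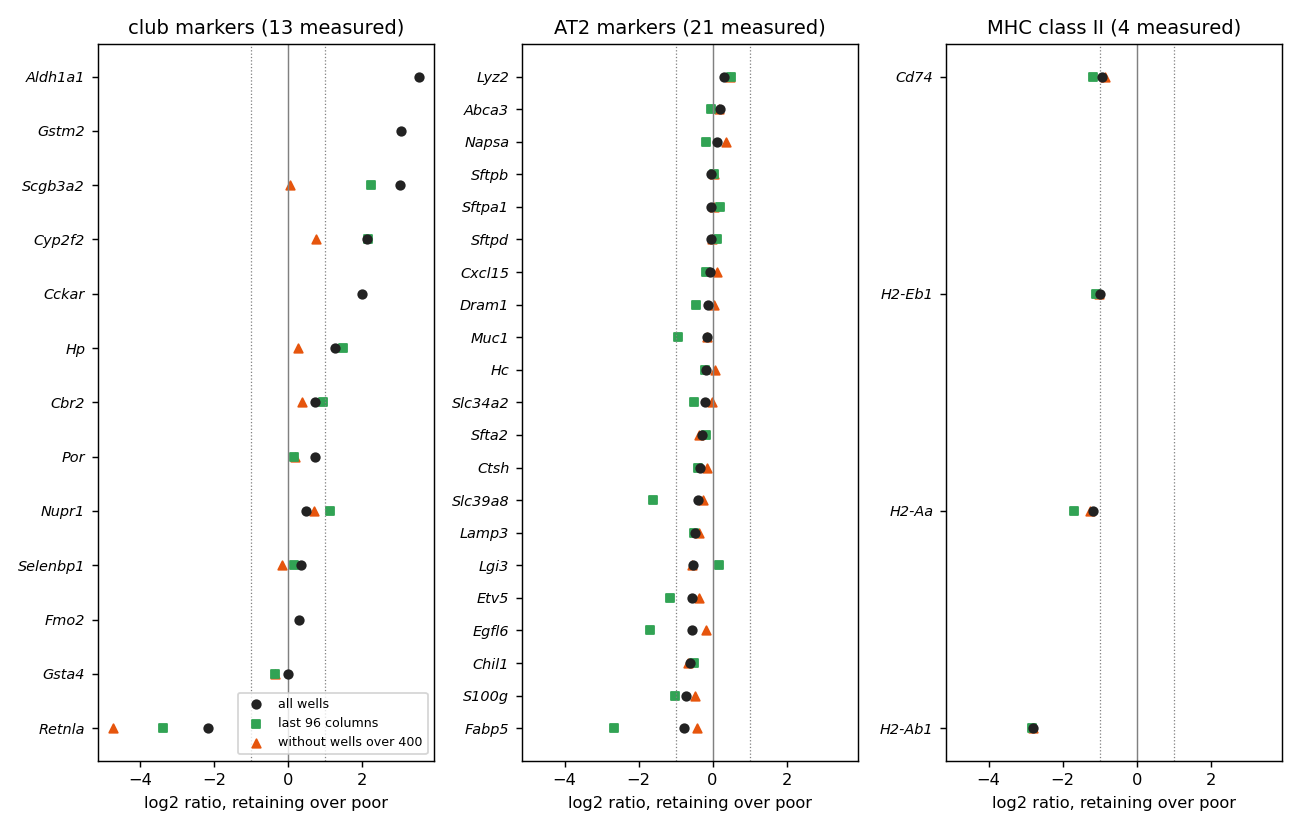
Log2 ratio of pooled CPM, retaining over poor, of every measured gene of the club, AT2 and MHC class II lists in all wells, in the last 96 columns and without wells over 400 Scgb1a1 counts, where measured there. Dotted lines mark 2-fold. Scgb3a2, Cyp2f2 and Hp move to within 2-fold without the wells over 400, the 4 class II genes stay left of 0, and the AT2 genes stay within 2-fold in all wells.

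Lipid synthesis genes, which serve surfactant, differed between column sets and with the wells over 400. Over all wells 1 of 18 measured genes was higher and 0 lower, beside 2.95% and 2.16% of all genes. The sums were 13103 CPM in retaining wells and 14064 CPM in poor wells (log2 ratio -0.10, -0.20 to 0.00). Retaining wells had 5984, 18404 and 8758 CPM in the first, middle and last 96 columns, and the 31 poor wells of the last set had 14322 CPM. Within that set the log2 ratio was -0.71 (-0.90 to -0.53), and -0.59 (-0.80 to -0.38) without its 2 wells over 400. Of the 5 retaining wells of the first set 3 were wells over 400. The 6 such wells had 5135 CPM and the other 24 retaining wells 15862 CPM, and without the 6 the log2 ratio over all columns was 0.17 (0.07 to 0.28), the opposite sign. The 1 gene called, the enoyl reductase Tecr, had 33 counts in retaining wells and 13 in poor wells (1.21, 0.24 to 2.26), and its ratio was -0.48 within the last 96 columns from 3 against 13 counts (-2.93 to 1.38). Of 8 measured cholesterol genes 0 were called in all wells.

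Genes of xenobiotic metabolism overlapped the club list and gave a like picture. Of 19 measured genes 7 were called higher and 1 lower, beside 2.95% and 2.16% of all genes. Their median log2 ratio was 0.86, and the sums were 20713 CPM in retaining wells and 10877 CPM in poor wells (log2 ratio 0.93, 0.83 to 1.03). Beside Cyp2f2, Aldh1a1 and Gstm2, the called genes included the lung cytochrome P450 Cyp4b1 (2.37, 0.58 to 4.78) with 17 counts against 3 and the transferase Gstm1 (1.73, 0.85 to 2.70) with 51 against 14. Within the last 96 columns 2 of 11 measured genes were higher, beside 2.45% of all genes, and the log2 ratio of the sums was 1.04 (0.91 to 1.18). Without the wells over 400, 1 of 12 measured genes was higher, beside 1.99% of all genes, and the log2 ratio of the sums was 0.34.

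Few genes of the other lists were called. Against 2.95% of all genes higher and 2.16% lower, no gene was called among 20 measured immediate early genes, 25 ribosomal protein genes, 21 respiratory chain genes and 7 heat shock chaperones, with median log2 ratios of 0.30, 0.11, 0.17 and 0.10. Of the immediate early genes 15 of 20 were above 0, with a log2 ratio of the sums of 0.20 (0.09 to 0.31). Within the last 96 columns, where 2.45% of all genes were higher and 4.76% lower, 2 of 16 immediate early genes were higher and 1 of 5 chaperones was lower. Among 14 measured lung transcription factors only Ehf, of the ETS family, was called (5 counts in retaining wells and 15 in poor wells, -1.72, -3.54 to -0.19), and Nkx2-1, the lung lineage factor, was at -0.19. Of 12 genes of transitional epithelium the cell cycle inhibitor Cdkn1a was higher (1.29, 0.34 to 2.33) and the galectin Lgals3 lower (-2.14, -3.72 to -0.81), and within the last 96 columns both fell short of a call, at 0.74 and -0.89, where other genes made 2 of 9 higher and 1 lower.

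Among genes outside the lists, Prelid1, a mitochondrial lipid carrier, had 18 counts in 12 retaining wells against 2 in 2 poor wells (3.03, 0.97 to 6.19), which is just at the minimum of 20 counts, and 2 against 2 counts in the last 96 columns. The other 9 genes named by size were between 1.58 and 1.95, among them Alas1, the first enzyme of haem synthesis (1.67, 0.63 to 2.85, and 1.90 in the last 96 columns), the tight junction gene Cgn (1.63, 0.13 to 3.42) and the paraoxonase Pon1 (1.62, 0.44 to 2.97). Prelid1, Clic1 and Gm12338 rested on 18 to 23 counts in retaining wells. On the lower side were Itih4 (-2.72, from 3 counts against 18), the taurine carrier Slc6a6 (5 counts in 5 wells against 19 in 16, -2.06, -3.84 to -0.59) and the prostaglandin carrier Slco2a1 (6 against 18, -1.72, -3.34 to -0.33). Stxbp3-ps (70 counts in retaining wells and 233 in poor wells) and Scn2b (51 and 130) were also pooled lower, at -1.87 and -1.49, but a few poor wells held most of these counts. Stxbp3-ps had counts in 20 of 30 retaining wells and 15 of 33 poor wells, with well medians of 296 and 0 CPM, and Scn2b in 17 and 13 wells, with medians of 248 and 0 CPM. Without the 3 poor wells of most counts, which held 156 and 87, the log2 ratios were -0.39 (-0.88 to 0.09) and -0.01 (-0.62 to 0.61), and neither gene was called. Also, 1 of the 2 control wells, with no sorted cell, held 65 and 41 counts of these. Stxbp3-ps is by its symbol a pseudogene of Stxbp3, and how reads were split between them is uncertain.

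Markers of basal, endothelial and mesenchymal cells were rare on both sides. Basal markers were at 0 in all 63 wells, 7 endothelial markers gave 0 counts in retaining wells and 3 in poor wells, and 8 mesenchymal markers gave 1 count on each side. The 10 ciliated markers summed to 673 CPM in retaining wells and 420 CPM in poor wells, with counts in 22 wells of each side. Of those counts 70 of 81 in retaining wells and 31 of 46 in poor wells were of Sec14l3 (log2 ratio 1.04, and -0.02 without the wells over 400), with Foxj1, the defining ciliary factor, at 0 on both sides. Goblet markers summed to 33 counts in retaining wells and 15 in poor wells (log2 ratio 1.00, 0.08 to 1.99) with Muc5ac at 0. Within the last 96 columns they summed to 23 and 15 counts (2.25, 1.25 to 3.30). Without the wells over 400 their log2 ratio was 0.56 (-0.52 to 1.65) over all columns. It was 1.57 (0.25 to 2.82) in the last 96 columns without them, from 10 against 15 counts. Markers of alveolar type 1 cells had counts in 30 of 30 retaining wells and 33 of 33 poor wells. Of 5 measured ones 0 were called, and the 12 markers of the list summed to 2343 CPM in retaining wells and 2630 CPM in poor wells.

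Repeating the comparison on thinned wells left fewer genes to compare. With every well thinned to 2384 counts, 825 genes were measured, 17 (2.06%) higher and 18 (2.18%) lower. Of 9 club markers 2 were then higher and 1 lower and the log2 ratio of their sums was 0.72 (0.59 to 0.84). Scgb3a2 was at 2.16 and Cyp2f2 at 1.85, and Scgb3a2 was detected in 11 of 30 retaining wells and 12 of 33 poor wells. Hp was at 0.96, under the 2-fold limit. The class II genes H2-Ab1 and H2-Aa were at -3.36, from 3 against 36 counts, and -1.13, and Lcn2 was at -1.21.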

How the data were processed

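The deposited table holds raw counts made by the authors, whole numbers per gene symbol and well, for 24781 genes and 288 wells (286 sorted, 2 controls). The submitters' processing notes name STAR, with no version, and mm10. The annotation, the counting tool and any collapse of the molecular barcodes that the labels' protocols describe were not given in the sources used here, and copies made by PCR would make every interval too narrow. No mitochondrial or spike-in symbol was in the table. Column sets are successive runs of 96 table columns, which no label calls a batch.

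Counts were summed per side and divided by the summed total without Scgb1a1. Ratios carry exact conditional binomial intervals, sums exact Poisson intervals, both at 95% and for counting error only, and a side at 0 counts was given 3. A gene needed 20 counts over both sides to be measured. Wells were thinned without replacement. The genes that chose the wells (Scgb1a1, Sftpc, Scgb3a1) were left out of the calls and list counts. The wells and the 35 gene lists were chosen with earlier results of these data known, so list counts are descriptions. Genes named from a list were up to 4 called members by size that stayed past 2-fold without their top well, besides markers that define a list. Outside the lists, the 10 largest and 10 smallest ratios under the same condition with counts in at least 5 wells were eligible. Genes such as Cckar, Cbr2, Retnla, Cdkn1a, Cd74, H2-Eb1, Gstm1 and the last-set AT2 genes were named to complete a count, after their values were seen. No doublet caller was run. The comparison was also run on simulated Poisson counts without variation between wells. Such a run cannot test calls of genes that are uneven among wells. Alternatives were other totals, edgeR 4.0.16 TMM factors, equal totals, other limits and subsets of wells. Python 3.11.15, numpy 2.4.6, scipy 1.17.1, pandas 2.3.3 and R 4.3.3 were used. Positions are from GENCODE on GRCm38 and promoters from RefSeq (GRCm38.p6).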

Additional observations from a re-analysis of the deposited data

Results flagged for a closer look

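A total of 16 sorted wells that the limit of 2340 counts removed also looked alveolar by the same shares, with over 100 Sftpc counts each, while both control wells had 0. Their totals were 1035 to 2243 counts, their median Scgb1a1 count was 21.5, and 1 of them had more than 40 Scgb1a1 counts. They are among 26 removed wells that met the limits on Sftpc and Scgb3a1 and entered no comparison.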

How the results depend on the processing

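Against 41 genes higher in retaining wells, the count was 17 after thinning, 69 with a limit of 100 Scgb1a1 counts, 83 with a count minimum of 1 and 9 with one of 50, 24 without wells whose totals lay in the highest 10%, 6, 15 and 19 in the first, middle and last 96 columns, 23 without the wells over 400 and 10 in the last 96 columns without those. Against 30 lower genes it was 47 with Scgb1a1 in the total, which moved the median of all genes to -0.10, and 18, 51, 96 and 10 for thinning, the limit of 100 and the minimums of 1 and 50, and 10 and 9 in the first and middle 96 columns. Club markers higher, 6 in the full comparison, were 2 after thinning, 3 with a minimum of 50, 1 without the highest 10%, 3, 1 and 4 in the 3 column sets, 0 without the wells over 400 and 3 in the last set without them. AT2 markers lower, 0 in full, were 1 after thinning, 2 with a limit of 100, 4 in the first and 4 in the last set and 1 in the last set without the wells over 400. MHC class II genes lower, 2 in full and counted after the data were seen, were 1 with a limit of 1% of the total, 1 and 0 in the first and middle sets and 3 in the last. The first and middle sets had 1 poor well each. Comparisons without the wells over 400, and those without single wells for Cyp2f2, Stxbp3-ps and Scn2b, were added after the data were seen. Of 521 values of 36 named genes under alternatives, 449 stayed near the full value, 70 moved and 2 had the opposite sign. These 2 were Aldh1a1 at -0.22 in the first 96 columns and Tecr at -1.16 in the middle 96 columns. Each had 0 counts in the single poor well of its set, and the sign came from the 3 counts given to that side. Aldh1a1 had 16 and 9 counts in retaining wells of the first set. All 13 Tecr counts of poor wells lay in the last 96 columns. Neither value shows a lower level in retaining wells. The cause of the other moves was not tested. The 449 do not measure how stable the values are, since the intervals are wide for genes of few counts. A count minimum of 1 or 50 leaves a ratio unchanged, so those 36 and 12 values were fixed in advance. The limit of 5% on Sftpc and leaving out the well of most Scgb1a1 counts removed the same well. Values of genes with too few counts in a subset were left out. Totals of 2384 to 8806 counts per well limit what can be seen of genes with under 20 counts over both sides. No paired analysis was possible because each side is 1 pool of wells and well numbers pair nothing.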
